A study of Mus musculus with 8 samples.

Results

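Desmin (Des), vimentin (Vim), nestin (Nes), synemin (Synm), syncoilin (Sync), plectin (Plec), lamin A/C (Lmna), lamin B1 (Lmnb1), lamin B2 (Lmnb2) and alphaB-crystallin (Cryab) were followed in RNA sequencing of the mouse heart ventricle. They are 10 of the 24341 genes of the deposited table, chosen by name as genes of the intermediate filament network, its linkers and its chaperone. Earlier results of these data were known when they were chosen. The study compared 4 Pos Cre with 4 Neg Cre ventricular lysates, each from male Med13/13L fl/fl mice labelled 12 weeks old, given chow with tamoxifen and taken 4 weeks after it. Pos Cre mice carried, per the series title, a deletion of Med13 and Med13L directed to cardiomyocytes. Neg Cre mice carried the floxed alleles and the same chow without Cre, so effects of the recombinase itself and of the deletion cannot be told apart. The promoter that drives Cre is not named in the labels. Nothing in the labels says whether libraries of a group came from separate animals or litters, so p-values measure the spread between these libraries. The library names of Neg Cre 1 and 2 share a stem, and they were kept as separate samples. Their SD of log2 differences over genes was 0.361, and the other Neg Cre pairs ran from 0.340 to 0.476. Neg Cre 2 gave 0.476 with Neg Cre 3 and 0.402 with Neg Cre 4. Neg Cre 1 and 2 also differ in depth and in ribosomal RNA level, given below. These SDs therefore cannot tell whether Neg Cre 1 and 2 came from 1 animal.

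Intermediate filaments are rope-like polymers that resist stretch. In cardiac muscle, desmin filaments run around the Z-discs and tie myofibrils to each other, to the cell membrane, to intercalated discs and to the nucleus. Synemin and syncoilin bind desmin and carry it to membrane complexes, plectin crosslinks filaments to these anchors, and alphaB-crystallin is the small heat shock protein that keeps desmin from aggregating. Lamins form the filament mesh under the nuclear membrane. Vimentin is the filament of fibroblasts, endothelium and other mesenchymal cells, and nestin is best known from progenitor, endothelial and regenerating muscle cells.

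Both targeted genes fell in Pos Cre libraries. Med13 stood at 7.39 to 8.73 FPKM in Pos Cre and 10.3 to 15.3 FPKM in Neg Cre libraries, and Med13l at 2.35 to 2.59 FPKM in Pos Cre and 4.38 to 6.13 FPKM in Neg Cre libraries. Their log2 changes were -0.50 (limma adjusted p = 0.00612) and -0.74 (limma adjusted p = 3.18e-04), and that of Med13 was -0.22 and not called (limma adjusted p = 0.171) when libraries were scaled to the same FPKM sum. FPKM divides fragments by transcript length and by library depth, so levels of different genes can be set side by side per length. Depth, estimated from the spacing of low values and in units of 1000000 fragments, was 4.57 to 24.0 in Pos Cre and 5.52 to 15.5 in Neg Cre libraries. The ribosomal RNA precursor Rn45s stood above 100 FPKM in 5 libraries (Pos Cre 1 and 2, Neg Cre 1, 3 and 4) and at 10.3 to 16.0 FPKM in the other 3. These 3 were also the deepest. Values within these sets, found in the data and treated as a batch, are given beside the pooled ones for the 10 genes, Hspb2 and the targeted genes. The low-Rn45s set holds 1 Neg Cre library, so its values carry no test. Med13 had a log2 change of -0.51 in the high set, where it was not called (limma adjusted p = 0.0529), and its value in the low set was -0.37. Med13l had -0.78 in the high and -0.66 in the low set. Of 10 cardiomyocyte markers 6 fell, among them Myh6 and Tnnt2, and 0 rose, against 19.4% lower and 19.7% higher of all genes tested. The other 4, Actc1, Actn2, Mybpc3 and Nkx2-5, had log2 changes of 0.02, -0.01, -0.12 and 0.16 and were not called. The summed level of the 10 was 31810 to 33128 FPKM in Pos Cre and 68295 to 72929 FPKM in Neg Cre libraries. Most of that difference is Myl2 and Mb, so the sums do not describe the list as a whole. Myl2 averaged 6941 FPKM in Pos Cre and 20614 FPKM in Neg Cre libraries, and Mb 4012 and 13537 FPKM. The same 6 fell, and Actc1, Actn2 and Nkx2-5 rose, under scaling to a fixed FPKM sum, where 5357 of all 11688 genes rose and 1025 fell. The 10 markers did not move together, and the cause was not tested. For any 1 marker, fewer cells of its type and less of its RNA per cell cannot be told apart in these lysates.

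Des, Lmna, Synm and Vim rose in Pos Cre ventricles, and none of the 10 genes fell. Des reached 2.12 times its Neg Cre level, Lmna 1.75 times, Synm 1.58 times and Vim 1.24 times. The B-type lamins Lmnb1 and Lmnb2, the linker Plec and the chaperone Cryab were not called, and neither were Nes and Sync. All 10 genes passed the filter of a mean of at least 1 FPKM and none was at the table's lowest value of 0.01 in any library. Calls required an adjusted p below 0.05 in limma, fitted on log2(FPKM + 1) and adjusted by the Benjamini-Hochberg method over 11688 genes. At an unadjusted p below 0.05 there were 5 higher genes, with Sync added, and 0 lower. Of all genes tested 19.7% were called higher and 19.4% lower, so 4 of 10 higher and 0 of 10 lower stand against those backgrounds. In either direction 39.2% of all genes tested were called, and 4 of the 10 is near that share. The groups did not overlap for 4 of the 10 genes, against 38.0% of all genes, which is near the background share. The median log2 change was 0.33 over the 10 genes and -0.01 over all genes tested. When each library was scaled to the same FPKM sum, the median over all genes moved to 0.26, and log2 changes of 1.39 for Des, 1.1 for Lmna, 0.77 for Synm and 0.61 for Vim then stand against that shift. With that scaling 6 of the 10 genes were called higher and 0 lower, against 5357 higher and 1025 lower of all 11688 genes.

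**Figure D1:**
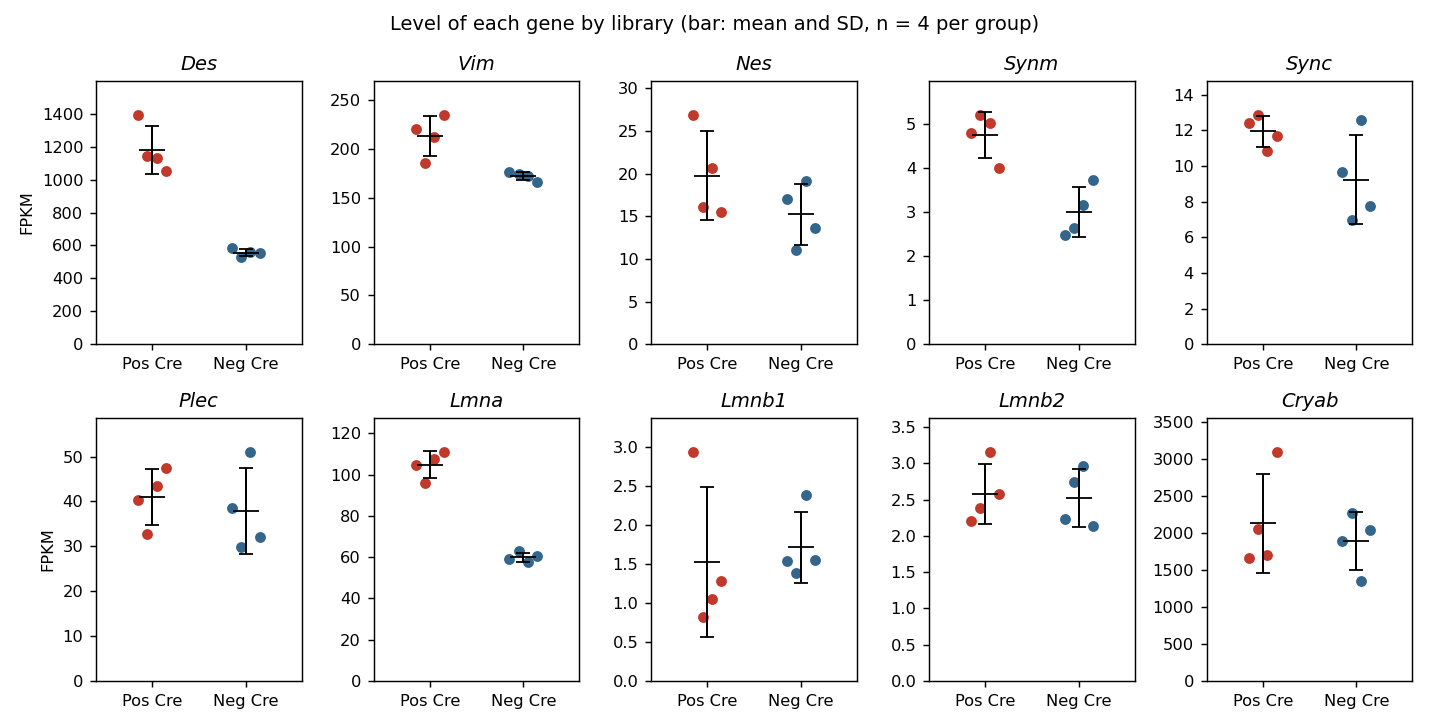
FPKM of each of the 10 genes in the 4 Pos Cre (red) and 4 Neg Cre (blue) libraries, 1 point per library, each panel with its own axis from 0. Black bars are mean and SD. Points of the groups are apart for Des, Lmna, Synm and Vim and overlap for the other 6 genes.

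**Figure D2:**
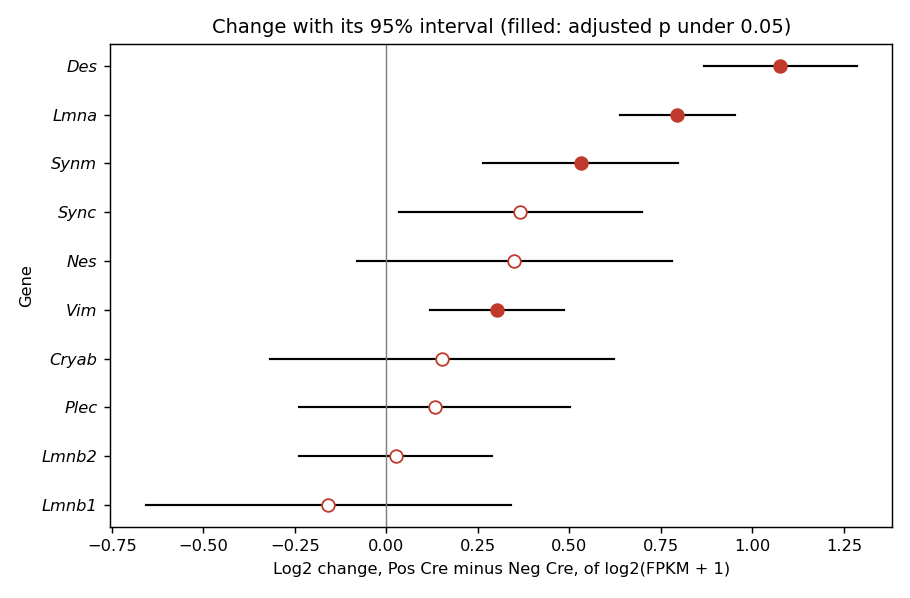
Log2 change of each gene, Pos Cre minus Neg Cre, on the log2(FPKM + 1) scale, with its 95% interval from limma. Filled points passed an adjusted p of 0.05, and intervals of the open points other than Sync include 0.

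Windows around the start sites of the 4 genes that rose are shown so that their sequences can be compared. RefSeq sequences on GRCm38.p6, from 250 bases before to 50 bases after a start site, were found for 7 of the 10 genes. They read 5′ to 3′ on the gene's strand, and capitals mark matches to the motifs listed after them. The window of Des lies at chr1:75360042-75360341 (plus strand), that of Lmna at chr3:88503303-88503602 (minus strand), that of Synm at chr7:67759693-67759992 (minus strand) and that of Vim at chr2:13574061-13574360 (plus strand). The Lmna window is 1 of 2 in the table, both inside the annotated gene, whose upstream end lies further out at 88509932, which neither window covers.
Des: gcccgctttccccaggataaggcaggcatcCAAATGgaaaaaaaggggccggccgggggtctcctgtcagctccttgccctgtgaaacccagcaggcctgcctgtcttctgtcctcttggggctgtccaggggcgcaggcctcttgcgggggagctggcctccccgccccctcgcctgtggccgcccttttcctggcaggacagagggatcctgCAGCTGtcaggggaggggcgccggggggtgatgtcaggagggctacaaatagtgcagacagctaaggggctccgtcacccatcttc
Lmna: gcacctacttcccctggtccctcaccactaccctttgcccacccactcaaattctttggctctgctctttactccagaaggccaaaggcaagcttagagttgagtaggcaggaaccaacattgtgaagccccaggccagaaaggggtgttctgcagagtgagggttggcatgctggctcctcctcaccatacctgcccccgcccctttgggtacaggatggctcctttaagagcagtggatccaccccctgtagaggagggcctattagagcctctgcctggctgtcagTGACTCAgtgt
Synm: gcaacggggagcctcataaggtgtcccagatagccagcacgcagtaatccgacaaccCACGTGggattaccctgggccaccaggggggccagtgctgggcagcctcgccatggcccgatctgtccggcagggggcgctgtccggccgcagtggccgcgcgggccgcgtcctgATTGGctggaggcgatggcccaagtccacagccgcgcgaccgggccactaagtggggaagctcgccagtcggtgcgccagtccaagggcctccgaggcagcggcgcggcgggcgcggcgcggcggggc
Vim: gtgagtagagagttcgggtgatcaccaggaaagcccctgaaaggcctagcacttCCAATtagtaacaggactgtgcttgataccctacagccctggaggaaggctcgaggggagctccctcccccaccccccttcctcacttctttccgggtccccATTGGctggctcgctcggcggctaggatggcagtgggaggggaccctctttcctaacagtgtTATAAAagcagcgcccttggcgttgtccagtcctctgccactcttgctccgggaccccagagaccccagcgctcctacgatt

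Both strands were searched for a CArG box (by its usual consensus), a MEF2 site (likewise), the TATA box TATAAA, the E-box CANNTG, the heat shock element GAANNTTC, the AP-1 site TGANTCA and the CCAAT box CCAAT. Of 32851 RefSeq windows, 1.63% held a CArG box, 3.19% a MEF2 site, 13.6% a TATA box, 72.3% an E-box, 7.86% a heat shock element, 7.81% an AP-1 site and 37.4% a CCAAT box. Matches that overlap were each kept. The Des window held 2 E-boxes, CAAATG and CAGCTG. The Lmna window held 1 AP-1 match, TGACTCA, just after the start site. The other Lmna window, not printed, held a CCAAT box. The Synm window held the E-box CACGTG and 1 CCAAT box read on the opposite strand, and the Vim window held TATAAA and 2 CCAAT boxes, of which 1 was read on the opposite strand. No motif was shared by all 4 windows. The Synm window was 72.7% G and C and the Des window 65.3%, against a median of 52.7% over all windows. These matches describe letters in the windows, and binding was not measured.

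Among the muscle filament genes, Des moved most. Desmin, the main intermediate filament of muscle (chromosome 1, 75360292 to 75368579, plus strand, GRCm38), stood at 1390.0, 1146, 1133 and 1053 FPKM in Pos Cre libraries 1 to 4, against 583, 532, 558 and 554 FPKM in Neg Cre libraries 1 to 4. The lowest Pos Cre library was far above the highest Neg Cre library, and Pos Cre 1 was highest of all. Des averaged 1181 ± 146 FPKM in Pos Cre and 557 ± 21.1 FPKM in Neg Cre libraries (SD, n = 4 each), which is a log2 change of 1.08 (SE 0.09, limma adjusted p = 1.32e-05). The log2 change was 1.16 among libraries with high Rn45s and 1.04 among those with low Rn45s. It ranked 315 of 11688 genes tested by log2 change, from the highest rise down. The antisense gene Gm15179 on its other strand was at 0.01 to 0.297 FPKM in Pos Cre and 0.245 to 0.604 FPKM in Neg Cre libraries.

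Synm encodes synemin, a large filament protein that joins desmin to the dystrophin complex and to vinculin (chromosome 7, 67730161 to 67759742, minus strand). Its level was low, at 4.79, 5.20, 5.02 and 4.00 FPKM in Pos Cre libraries 1 to 4 and 2.48, 2.63, 3.16 and 3.73 FPKM in Neg Cre libraries 1 to 4. The groups did not overlap, although Pos Cre 4 and Neg Cre 4 were close. Its log2 change was 0.53 (SE 0.12, limma adjusted p = 0.00544), and within the high-Rn45s libraries it was 0.55, against 0.6 within the low-Rn45s ones. Synm overlaps Ttc23 on the opposite strand, at 5.74 to 8.67 FPKM in Pos Cre and 5.47 to 6.27 FPKM in Neg Cre libraries, and the sources used here do not say whether counting used strand.

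Sync encodes syncoilin, which binds desmin and alpha-dystrobrevin (chromosome 4, 129287256 to 129309383, plus strand). It stood at 12.4, 12.8, 10.9 and 11.7 FPKM in Pos Cre libraries 1 to 4, and at 9.64, 6.98, 12.6 and 7.77 FPKM in Neg Cre libraries 1 to 4. Neg Cre 3 lay among the Pos Cre values, and the other 3 Neg Cre libraries lay below all of them. Sync was not called, with a log2 change of 0.37, a 95% interval of 0.03 to 0.70 and a limma adjusted p of 0.0781. It was called higher without Neg Cre 3 (log2 change 0.51, limma adjusted p = 0.00555) and with the Rn45s batch as a term (0.44, limma adjusted p = 0.0268). Within the high-Rn45s and the low-Rn45s set it was 0.33 and 0.62. Sync overlaps Rbbp4 on the opposite strand, at 23.5 to 25.9 FPKM in Pos Cre and 19.1 to 21.0 FPKM in Neg Cre libraries.

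Among the filaments of other cell types, Vim rose by a small amount. Vimentin (chromosome 2, 13574311 to 13582826, plus strand) stood at 221, 186, 212 and 235 FPKM in Pos Cre libraries 1 to 4, against 176, 174, 172 and 166 FPKM in Neg Cre libraries 1 to 4. Pos Cre 2 was the closest to the Neg Cre libraries, which lay within a narrow range. Vim averaged 213 ± 20.5 FPKM in Pos Cre and 172 ± 4.31 FPKM in Neg Cre libraries (SD, n = 4 each), with a log2 change of 0.30 (SE 0.08, limma adjusted p = 0.0144). Within the high-Rn45s libraries its log2 change was 0.24 and it was no longer called (limma adjusted p = 0.128), and within the low-Rn45s libraries it was 0.36.

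Nes encodes nestin (chromosome 3, 87971093 to 87980451, plus strand). Its values were 26.8, 16.0, 20.7 and 15.5 FPKM in Pos Cre libraries 1 to 4 and 17.1, 11.1, 19.2 and 13.6 FPKM in Neg Cre libraries 1 to 4. The Pos Cre range lay higher, and Pos Cre 2 and 4 were within the Neg Cre range. Nes was not called, with a log2 change of 0.35, a 95% interval of -0.08 to 0.78 and a limma adjusted p of 0.183, and it was called higher after scaling to a fixed FPKM sum (0.64, limma adjusted p = 0.0222). Its log2 change was 0.32 among high-Rn45s and 0.65 among low-Rn45s libraries. Leaving out 1 library gave 0.20 (without Pos Cre 1) to 0.46 (without Neg Cre 3).

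Markers of cells that contain vimentin moved in different directions beside these values. Of 10 fibroblast markers 6 rose (Col1a1, Col1a2, Col3a1, Lum, Postn and Tcf21) and 1 fell (Dpt). Pdgfra, Dcn and Gsn were not called, at log2 changes of 0.21, 0.22 and 0.30. The summed level of the 10 was 1596 to 1923 FPKM in Pos Cre and 1166 to 1273.5 FPKM in Neg Cre libraries. Of 10 smooth muscle and pericyte markers 3 rose (Acta2, Cnn1 and Tagln) and 2 fell (Abcc9 and Kcnj8), at a median log2 change of -0.03. Their sums were 1005 to 1453 FPKM in Pos Cre and 608 to 741 FPKM in Neg Cre libraries. Most of that difference is Acta2, which averaged 779 FPKM in Pos Cre and 194 FPKM in Neg Cre libraries, so the sums do not describe the list as a whole. Of 10 endothelial markers 0 rose and 3 fell, with sums of 369 to 426 FPKM in Pos Cre and 450.45 to 522 FPKM in Neg Cre libraries. Of 10 macrophage markers 0 rose and 5 fell, with sums of 198 to 278 FPKM in Pos Cre and 301 to 396 FPKM in Neg Cre libraries. Under scaling to a fixed FPKM sum the counts were 9 up and 1 down for fibroblasts, 5 up and 1 down for smooth muscle and pericytes, 1 up and 1 down for endothelium and 0 up and 2 down for macrophages. The shares over all genes tested were 19.7% up and 19.4% down on the deposited scale. With the fixed sum, 5357 of all 11688 genes were up and 1025 down. None of the 4 tested Schwann cell markers was called, at sums of 17.8 to 23.1 FPKM in Pos Cre and 20.3 to 21.8 FPKM in Neg Cre libraries. All 8 lymphocyte markers were below the filter, and 7 of them were listed at 0.01 in at least 1 library. No marker of the other lists was at 0.01 in all libraries. The part of cell composition in the values of Vim and Nes was not tested.

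The crosslinker Plec did not separate the groups. Plectin, a giant protein that ties desmin to Z-discs, the membrane, mitochondria and the nucleus (chromosome 15, 76170974 to 76231378, minus strand), stood at 40.4, 32.7, 43.5 and 47.4 FPKM in Pos Cre libraries 1 to 4, against 38.5, 29.7, 51.0 and 32.0 FPKM in Neg Cre libraries 1 to 4. The highest value of all was in Neg Cre 3 and the lowest in Neg Cre 2. The log2 change was 0.13, with a 95% interval of -0.24 to 0.50 and a limma adjusted p of 0.570. Leaving out 1 library gave 0.03 (without Neg Cre 2) to 0.28 (without Neg Cre 3). It had opposite signs in the Rn45s sets, at -0.13 among the high and 0.59 among the low libraries. Plec overlaps Parp10 on the same strand, at 3.07 to 4.37 FPKM in Pos Cre and 2.96 to 4.58 FPKM in Neg Cre libraries. Levels here are sums over all plectin transcripts, which start at several first exons, and isoforms were not measured apart.

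Of the lamins, Lmna rose and the B-type genes were not called. Lmna, which encodes lamins A and C of differentiated cells (chromosome 3, 88481148 to 88509932, minus strand), stood at 105, 96.1, 108 and 111 FPKM in Pos Cre libraries 1 to 4, against 59.0, 62.8, 57.7 and 60.3 FPKM in Neg Cre libraries 1 to 4. Each Pos Cre library was above every Neg Cre library, with a wide gap between the groups. Lmna averaged 105 ± 6.34 FPKM in Pos Cre and 60.0 ± 2.17 FPKM in Neg Cre libraries (SD, n = 4 each), which is a log2 change of 0.80 (SE 0.07, limma adjusted p = 1.5e-05). Within the high-Rn45s libraries it was 0.76, and within the low-Rn45s ones 0.79. Transcripts of lamin A and lamin C share most exons and were not measured apart.

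Lmnb1, the B-type lamin that is highest in dividing cells (chromosome 18, plus strand), stood at 2.94, 0.821, 1.05 and 1.28 FPKM in Pos Cre libraries 1 to 4 and at 1.54, 1.39, 2.38 and 1.55 FPKM in Neg Cre libraries 1 to 4. Pos Cre 1 was the highest of all 8, and the other 3 Pos Cre libraries were below all Neg Cre libraries. The log2 change was -0.16, with a 95% interval of -0.66 to 0.34 (limma adjusted p = 0.615), -0.40 without Pos Cre 1 (limma adjusted p = 0.0667) and -0.02 without Pos Cre 2. Among high-Rn45s libraries it was -0.06 and among low-Rn45s libraries -0.14. These levels rest on an estimated 20.4 to 84.0 fragments in Pos Cre and 24.3 to 61.1 fragments in Neg Cre libraries, so counting error is large.

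Lmnb2, the other B-type gene (chromosome 10, 80901363 to 80918245, minus strand), stood at 2.21, 2.39, 3.16 and 2.57 FPKM in Pos Cre libraries 1 to 4 and at 2.24, 2.74, 2.97 and 2.13 FPKM in Neg Cre libraries 1 to 4. The groups overlapped fully, with a log2 change of 0.03 and a 95% interval of -0.24 to 0.29 (limma adjusted p = 0.885). It was -0.05 without Pos Cre 3 and 0.09 without Neg Cre 3, and -0.06 and 0.04 within the high and low Rn45s sets. Beside the B-type lamins, none of the 7 tested of 10 cell cycle genes was called (limma, adjusted over all genes). The summed level of the 10 was 44.7 to 55.1 FPKM in Pos Cre and 44.5 to 51.7 FPKM in Neg Cre libraries. Most of it was Pcna, at 34.3 to 37.6 FPKM in Pos Cre and 31.4 to 37.8 FPKM in Neg Cre libraries. Mki67 and Top2a, like Lmnb1, were highest in Pos Cre 1 (4.79 and 3.58 FPKM) and Neg Cre 3 (3.92 and 3.42 FPKM). Birc5 and Mcm2 were instead highest in Pos Cre 4 (2.17 FPKM) and Pos Cre 3 (4.16 FPKM). A link to Lmnb1 was not tested. Lmna made up 95.3 to 96.8% of the FPKM of the 3 lamin genes in Pos Cre and 91.5 to 94.2% in Neg Cre libraries, and these ranges did not overlap.

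Cryab was the most abundant of the 10 genes in both groups and was not called. AlphaB-crystallin (chromosome 9, 50745951 to 50756636, plus strand) stood at 1664, 2055, 1706 and 3093 FPKM in Pos Cre libraries 1 to 4, against 1889, 2271, 1357 and 2037 FPKM in Neg Cre libraries 1 to 4. Pos Cre 4 was highest of all, and the other 3 Pos Cre libraries lay inside the Neg Cre range. The log2 change was 0.15, with a 95% interval of -0.32 to 0.62 (limma adjusted p = 0.609), and it was -0.04 without Pos Cre 4 and 0.25 without Pos Cre 1. Within the high and low Rn45s sets it was 0.09 and 0.02. Quantile normalization gave 0.62 and called it higher (limma adjusted p = 0.0353).

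Hspb2, a small heat shock protein gene that lies head to head with Cryab on the other strand (chromosome 9, 50751072 to 50752354), rose. It stood at 76.2, 88.9, 82.5 and 89.9 FPKM in Pos Cre libraries 1 to 4, against 64.6, 68.4, 48.6 and 58.3 FPKM in Neg Cre libraries 1 to 4. The groups did not overlap, and its log2 change was 0.49 (SE 0.11, limma adjusted p = 0.00484). Within the high-Rn45s libraries it was 0.53 and within the low-Rn45s ones 0.33. The annotated span of Cryab covers Hspb2 on the other strand, so without strand their fragments could not be told apart there.

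In order of level per length, Cryab came first in both groups, followed by Des, Vim, Lmna, Plec, Nes, Sync, Synm, Lmnb2 and Lmnb1. Neighbours whose ranges over libraries overlapped were Lmnb2 and Lmnb1 in Pos Cre libraries, and in Neg Cre libraries Nes and Sync, Synm and Lmnb2, and Lmnb2 and Lmnb1. The 5 cytoplasmic filament genes Des, Vim, Nes, Synm and Sync summed to 1319 to 1655 FPKM in Pos Cre and 727 to 789 FPKM in Neg Cre libraries. Des made up 79.8 to 84.0% of that sum in Pos Cre and 72.9 to 74.3% in Neg Cre libraries, and Vim 13.3 to 17.8% in Pos Cre and 22.3 to 24.0% in Neg Cre libraries.

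Ratios between genes within a library do not depend on how libraries were scaled, and 8 of them were compared here. Several share Des, and Des and Lmna were already called higher. These tests are therefore not independent of each other or of those calls. Vim and Plec, set against Des below, had log2 changes of 0.30 and 0.13 themselves. For these ratios, libraries were compared with exact permutation tests (two-sided), and 3 ratios did not overlap between groups. Each of these reached an exact permutation p = 0.0286, the smallest that 4 against 4 libraries allow, and 0.0762 after Benjamini-Hochberg adjustment over the 8 ratios, which misses 0.05. Vim to Des was 0.159, 0.162, 0.187 and 0.223 in Pos Cre libraries 1 to 4, against 0.302, 0.327, 0.309 and 0.300 in Neg Cre libraries 1 to 4, a log2 difference of -0.77. Plec to Des was 0.0285 to 0.0450 in Pos Cre and 0.0559 to 0.0914 in Neg Cre libraries, a log2 difference of -0.94, and -0.43 within the low-Rn45s libraries. Lmna to Lmnb2 was 34.1 to 47.5 in Pos Cre and 19.5 to 28.3 in Neg Cre libraries, a log2 difference of 0.77.

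The other 5 ratios overlapped between groups. Cryab to Des was 1.2, 1.79, 1.51 and 2.94 in Pos Cre libraries 1 to 4, against 3.24, 4.27, 2.43 and 3.68 in Neg Cre libraries 1 to 4, where only Pos Cre 4 reached the Neg Cre range (exact permutation p = 0.0571, adjusted 0.114). Lmna to Lmnb1 was 35.7 in Pos Cre 1 and 86.4 to 117 in the other 3 Pos Cre libraries, against 24.2 to 45.3 in Neg Cre libraries (exact permutation p = 0.114, adjusted 0.131). Synm to Des differed by -0.40 on the log2 scale (exact permutation p = 0.0857, adjusted 0.131) and Hspb2 to Cryab by 0.35 (exact permutation p = 0.114, adjusted 0.131). Nes to Vim differed by 0.07 (exact permutation p = 0.743), with library ranges that largely overlapped.

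**Figure D3:**
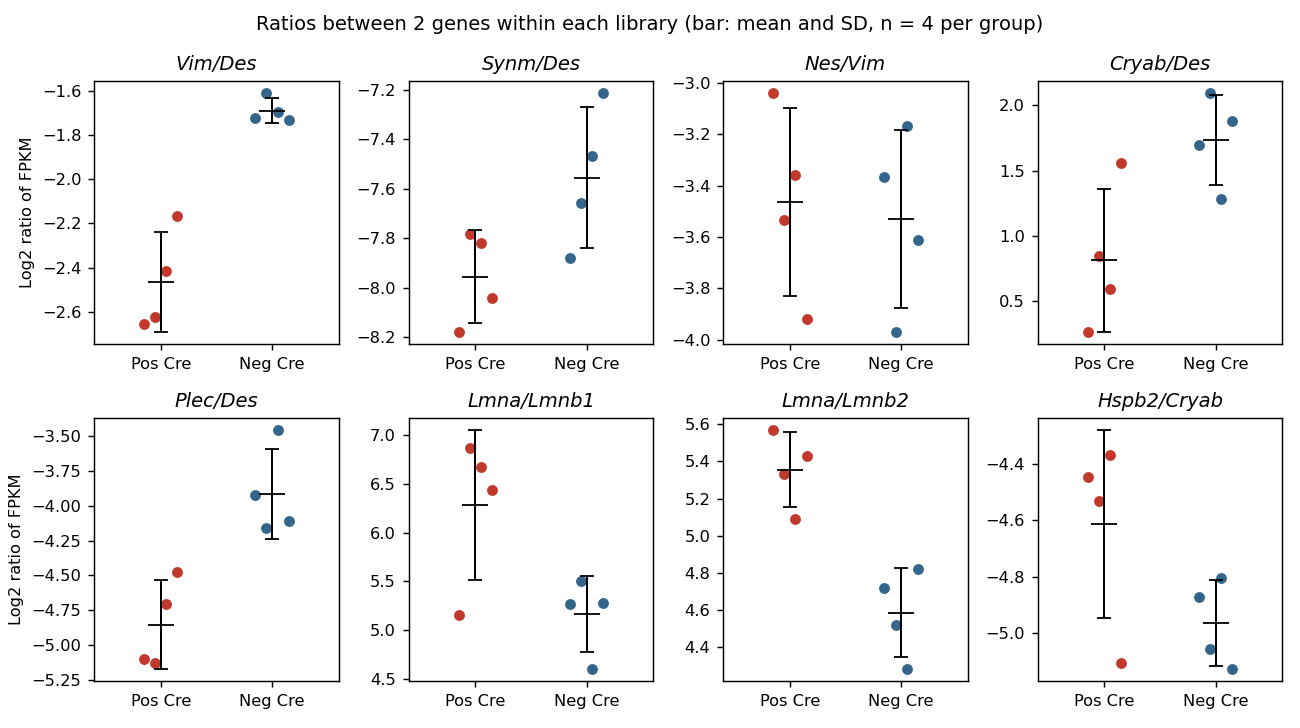
Log2 ratio of the FPKM of 2 genes within each library, in 4 Pos Cre (red) and 4 Neg Cre (blue) libraries, with mean and SD. Vim/Des and Plec/Des are lower and Lmna/Lmnb2 higher in every Pos Cre library than in any Neg Cre library.

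Of 16 other intermediate filament genes, most of them keratins and neurofilaments, only Krt80, Krt18 and Krt222 passed the filter. Krt80 and Krt18 passed it only through their Pos Cre level, so their values are given as a description with no test. Krt80, a type II keratin, stood at 9.07, 10.2, 9.90 and 8.84 FPKM in Pos Cre libraries 1 to 4, against 0.572, 1.27 and 1.43 FPKM in Neg Cre libraries 1, 2 and 4 and 0.01, the lowest value of the table, in Neg Cre 3. Krt18, a type I keratin of simple epithelia, stood at 1.02 to 2.44 FPKM in Pos Cre and 0.106 to 0.564 FPKM in Neg Cre libraries. The groups did not overlap for either gene, as for 38.0% of all genes. Since both passed the filter through their Pos Cre level, this supports no statement. Krt222 stood at 21.0 to 27.0 FPKM in Pos Cre and 18.1 to 26.8 FPKM in Neg Cre libraries and was not called. Krt8, the usual partner of Krt18, was below the filter, at 0.0923 to 0.488 FPKM in Pos Cre and 0.01 to 0.160 FPKM in Neg Cre libraries, and it is named here after its values were seen.

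Among genes of the desmosome, which holds desmin at the intercalated disc, Dsc2, Dsp, Dsg2 and Pkp2 fell and the plakophilin relative Pkp4 rose. The plakin Macf1, a crosslinker of actin and microtubules, also rose. Jup and Dst were not called, at log2 changes of 0.11 and 0.27 (limma adjusted p = 0.352 and 0.0831). Dsg2 and Macf1 were not called within the high-Rn45s libraries. Under scaling to a fixed FPKM sum Dsc2 alone of Dsc2, Dsp, Dsg2 and Pkp2 still fell, and Pkp4, Macf1, Dst and Jup rose. Dsc2, a desmosomal cadherin, stood at 8.13 ± 0.413 FPKM in Pos Cre and 15.6 ± 3.15 FPKM in Neg Cre libraries (SD, n = 4 each; log2 change -0.85, limma adjusted p = 3.07e-04). Pkp4 stood at 64.2 ± 7.37 FPKM in Pos Cre and 34.5 ± 4.38 FPKM in Neg Cre libraries (SD, n = 4 each; log2 change 0.88, limma adjusted p = 1.3e-04). Ppl, the plakin periplakin, stood at 0.438 ± 0.104 FPKM in Pos Cre and 1.6 ± 0.310 FPKM in Neg Cre libraries (SD, n = 4 each), and Eppk1, the plakin epiplakin, at 0.878 ± 0.0761 FPKM in Pos Cre and 0.0815 ± 0.0686 FPKM in Neg Cre libraries (SD, n = 4 each). Ppl passed the filter only through its Neg Cre level and Eppk1 did not pass it, so no count over the list is given and both are described with no test.

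Most genes of the nuclear envelope and of lamin processing were not called. Of 24 tested, 2 rose, 2 fell and 20 were not called, at a median log2 change of -0.02, and 13 rose and 0 fell under scaling to a fixed FPKM sum. Over all genes tested, 19.7% rose and 19.4% fell. That scaling called 5357 of all 11688 genes higher and 1025 lower. Syne3, a nesprin that links the nucleus to the cytoskeleton, stood at 3.82 ± 0.570 FPKM in Pos Cre and 1.98 ± 0.506 FPKM in Neg Cre libraries (SD, n = 4 each), a log2 change of 0.70 that was not called within the high-Rn45s libraries (limma adjusted p = 0.0560). Tor1aip2, an activator of torsin ATPases, stood at 41.0 ± 2.31 FPKM in Pos Cre and 30.8 ± 1.37 FPKM in Neg Cre libraries (SD, n = 4 each). Lbr, the lamin B receptor, fell to 9.41 ± 0.164 FPKM in Pos Cre, against 11.5 ± 0.744 FPKM in Neg Cre libraries (SD, n = 4 each; log2 change -0.26, limma adjusted p = 0.0179), but its log2 change was 0.02 after scaling to a fixed FPKM sum, and its call was lost without Neg Cre 1 (limma adjusted p = 0.0603) and within the high-Rn45s libraries (limma adjusted p = 0.117).

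Small heat shock proteins and chaperones of the filament system went both ways. Of 13 tested of 15 genes 2 rose and 5 fell, at a median log2 change of 0.05, and under scaling to a fixed FPKM sum 8 rose and 0 fell. The shares over all genes tested were 19.7% higher and 19.4% lower. With the fixed sum, 5357 of all 11688 genes rose and 1025 fell. Besides Hspb2, the muscle heat shock gene Hspb3 rose to 27.5 ± 1.85 FPKM in Pos Cre, against 15.8 ± 3.17 FPKM in Neg Cre libraries (SD, n = 4 each; log2 change 0.78, limma adjusted p = 7.89e-04). Bag3, a co-chaperone that clears damaged Z-disc proteins, fell to 58.6 ± 5.0 FPKM in Pos Cre, against 89.9 ± 17.7 FPKM in Neg Cre libraries (SD, n = 4 each; log2 change -0.59, limma adjusted p = 0.00449). Hspb6 fell to 352 ± 87.1 FPKM in Pos Cre, against 524 ± 55.1 FPKM in Neg Cre libraries (SD, n = 4 each; log2 change -0.60, limma adjusted p = 0.0119), with Pos Cre 1 at 468 FPKM inside the Neg Cre range and no call within the high-Rn45s libraries (limma adjusted p = 0.0648). The calls of Bag3 and Hspb6 were lost after scaling to a fixed FPKM sum, at log2 changes of -0.29 for each (limma adjusted p = 0.113 and 0.150).

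Of 11 tested of 13 genes of desmin turnover and its regulators, 3 rose and 1 fell, at a median log2 change of 0.09, and 7 rose and 0 fell under scaling to a fixed FPKM sum. For comparison, 19.7% of all genes tested rose and 19.4% fell, and with the fixed sum 5357 of 11688 rose and 1025 fell. Capn2, a calpain protease, stood at 49.2 ± 3.59 FPKM in Pos Cre and 36.1 ± 1.89 FPKM in Neg Cre libraries (SD, n = 4 each; log2 change 0.44, limma adjusted p = 0.00126). Vcp, an ATPase that extracts proteins for degradation, stood at 257 ± 20.3 FPKM in Pos Cre and 212 ± 4.37 FPKM in Neg Cre libraries (SD, n = 4 each; log2 change 0.27, limma adjusted p = 0.0162), and its call was lost without Pos Cre 3 (limma adjusted p = 0.0572) and within the high-Rn45s libraries (limma adjusted p = 0.167). The muscle ubiquitin ligase Trim63 stood at 100.2 ± 11.2 FPKM in Pos Cre and 138 ± 11.9 FPKM in Neg Cre libraries (SD, n = 4 each; log2 change -0.46, limma adjusted p = 0.00412), and its log2 change was -0.16 and not called after scaling to a fixed FPKM sum.

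**Figure D4:**
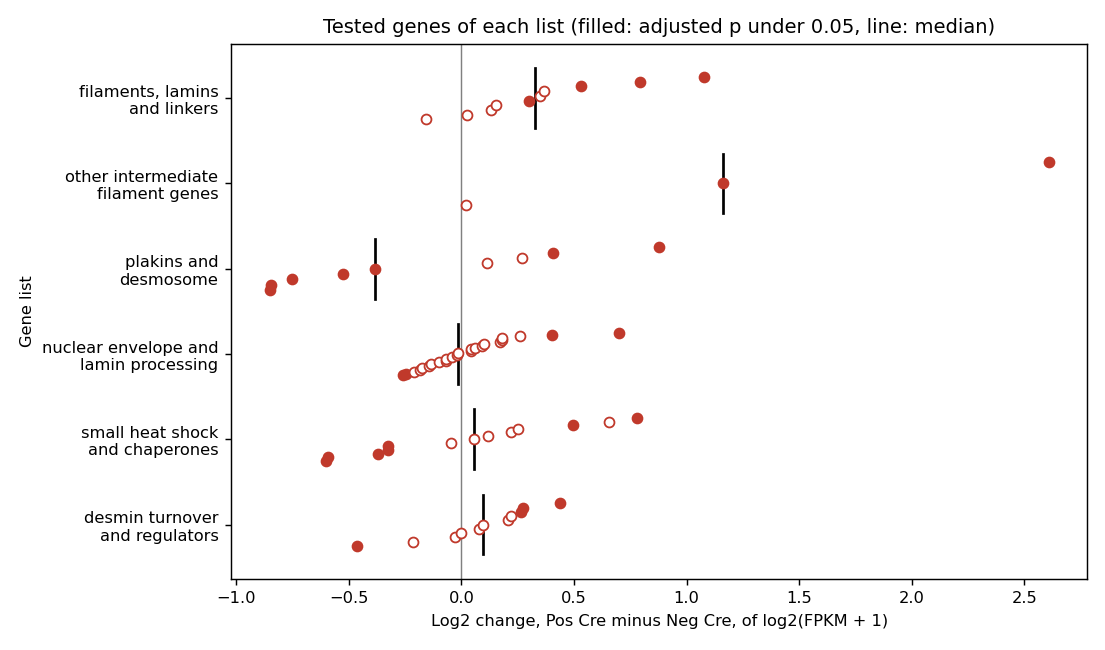
Log2 change, Pos Cre minus Neg Cre, of each tested gene of 6 gene lists, 1 point per gene, filled where the adjusted p was under 0.05, with the median of each list as a line. All 4 filled points of the filament, lamin and linker genes lie right of 0. Krt80, Krt18 and Ppl are plotted although they passed the filter only through the group where they are high, so their points and the medians of their lists support no statement.

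The genes whose pattern over the 8 libraries was most like that of Des, by the mean absolute difference of centred log2(FPKM + 1), were Akap2 (0.0330), Nlrp10 (0.0582), Sepw1 (0.0584), Rsu1 (0.0606) and Cyld (0.0608). Akap2, an anchoring protein for protein kinase A, averaged 44.8 ± 6.97 FPKM in Pos Cre and 20.9 ± 0.698 FPKM in Neg Cre libraries (SD, n = 4 each). Likeness here is dominated by the difference between groups and says nothing of shared function.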

How the data were processed

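RNA of 8 ventricular lysates was sequenced from stranded total RNA libraries after ribosomal RNA depletion, per the labels' protocols. The authors deposited FPKM values per gene. Cufflinks, Bowtie2 2.2.6 and mm10 are named, per the submitters' processing notes. For the annotation, the use of strand and any filter, the sources used here say nothing. The lowest value of the table is 0.01, and 6 cells holding a word were set to missing, none in the 10 genes.

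Groups were compared with limma 3.58.1 (R 4.3.3; lmFit, eBayes with a trend) on log2(FPKM + 1), a scale that understates the change of low genes, for genes whose mean reached 1 FPKM. P-values were adjusted over 11688 genes. Ratios were tested by exact permutation (SciPy 1.17.1). The fit was tested on simulated data. Gene positions are those of RefSeq on GRCm38.p6, the assembly behind mm10, and overlapping genes those of GENCODE. Depth was estimated from 12451 genes with 1 GENCODE transcript that has a RefSeq match and is 500 to 4000 bases long, where FPKM times length shows the worth of 1 fragment. At 1 FPKM a 2 kb transcript rests on 9.14 to 48.0 fragments, and a count of 0 allows up to 3 fragments, or 0.0625 to 0.328 FPKM, for counting error only.

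The 10 genes and all lists were chosen with earlier results of these data known. Named genes are the 10 genes, Med13, Med13l, Hspb2, up to 3 called genes with the largest change per list that is no marker list (the 2 most abundant where fewer than 2 were called), and the 5 genes most like Des. Alternatives covered pseudocounts, filters, scaling, the Rn45s batch, variance models, a replicate block and leaving out each library. Averaging Neg Cre 1 and 2, whose library names share a stem, was added after seeing the data.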

Additional observations from a re-analysis of the deposited data

Results flagged for a closer look

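Lmnb1 stood at 2.38 FPKM in Neg Cre 3, apart from the other 3 Neg Cre libraries at 1.39 to 1.55 FPKM. Its gap to the nearest library was 0.8325 of the group's range, just over Dixon's limit for 4 samples. It was the only such value among 38 groups of 4 examined, where chance flags about 1 in 20 groups.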

How the results depend on the processing

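The calls of Des and Lmna held under each of 21 alternative fits, and that of Synm under each of the 20 in which it was tested. Vim lost its call only within the 5 high-Rn45s libraries (log2 change 0.24). The number of the 10 genes called higher ran from 3 to 6 over all alternatives and the number called lower was 0 in each. Scaling to a fixed FPKM sum gave 5357 genes called higher and 1025 lower, against 2307 and 2269 on the deposited scale, so 83.9% of calls were higher against 50.4%. It also turned the log2 change of Lbr to 0.0244. Leaving out each library gave 4 to 5 of the 10 genes called higher, 1862 to 2335 genes called higher and 1862 to 2317 lower. Deviations of same-numbered libraries correlated at -0.16 to -0.08. The same-numbered libraries 2, 3 and 4 lie in different Rn45s sets, so these correlations cannot tell whether sample numbers pair the libraries. With the replicate block 5 of the 10 genes were called higher, Nes among them (limma adjusted p = 0.0493), as were 1963 genes in all, with 1899 lower. The cause of these differences was not tested.

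With 1 added to both genes, the log2 difference was -0.55 for Synm/Des and 0.95 for Lmna/Lmnb1, each at an exact permutation p of 0.0286. These p-values were not adjusted over the ratios. An added 1 is large beside the levels of Synm and Lmnb1, and such ratios do depend on how libraries were scaled. Within high-Rn45s libraries Plec/Des differed by -1.29 and within low-Rn45s libraries by -0.43. Without single libraries the log2 difference was -0.87 to -0.71 for Vim/Des, -1.07 to -0.79 for Plec/Des, -0.51 to -0.29 for Synm/Des, -1.17 to -0.74 for Cryab/Des, 0.67 to 0.86 for Lmna/Lmnb2, 0.93 to 1.5 for Lmna/Lmnb1, 0.27 to 0.51 for Hspb2/Cryab and -0.08 to 0.22 for Nes/Vim. Averaging Neg Cre 1 and 2 left 4 of the 10 genes called higher. Counting error limits Lmnb1 and Lmnb2 most.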
